A study of Mus musculus with 16 samples.

Results

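The B-lineage transcription factors described here are 10 named genes, Pax5, Ebf1, Spib, Bach2, Irf4, Prdm1, Xbp1, Bhlhe41, Zbtb32 and Zbtb20, out of 11713 genes counted in mouse spleen. They were chosen by name, and all 10 were in the deposited count table. Their levels were read in 5 populations of spleen cells: B-1-like, marginal zone, transitional-like and plasma cells, and follicular B cells as the common comparison. The samples were spleens of 9-month-old female BALB/cJ mice, profiled by CITE-seq, which counts polyadenylated RNA and DNA-tagged antibodies in the same droplet. The labels give 16 samples in 4 groups of 4, RNA and antibody tags for each of the sources Main1 and Main2, and no genotype, allele or treatment. Red blood cells were lysed before staining. The tables do not separate the 4 samples of a source, so each source counted as 1 library, and p-values measure at most the spread between these 2 libraries, which may be technical.

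B-cell identity rests on a small set of DNA-binding proteins that are shared by all mature B cells, and on others that are turned up or down as cells take on a particular fate. Pax5 and Ebf1 install and hold the B-cell programme, and Spib and Bach2 keep mature B cells responsive and undifferentiated. Irf4, Prdm1 (Blimp-1) and Xbp1 drive the step to antibody secretion, during which Prdm1 shuts off Pax5 and Bach2 represses Prdm1 beforehand. Bhlhe41 is required for B-1a cells in mice, Zbtb32 restrains memory B-cell responses, and Zbtb20 is known in mouse B-1 and plasma cells.

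The populations were set by antibodies and by marker transcripts, and no transcription factor of the 10 was used in a gate. The B gate of 5425 droplets was positive for at least 1 B-cell surface antigen and negative for CD3. Marginal zone droplets (149 in Main1, 323 in Main2) had high CD21/35 and low IgD, and follicular droplets (858 and 929) had high IgD without the highest CD21/35. B-1-like droplets (44 and 18) had low IgD, high IgM, CD5 in the top 10% and a UMI of at least 1 of 6 marker genes. Transitional-like droplets (84 and 109) had low CD21/35, high IgM and high Vpreb3 plus Cd93. Plasma droplets (34 and 43) were chosen by Jchain with at least 2 of 6 plasma-cell genes, some of them secretory genes. Plasma droplets had to be negative for CD3 but not to lie in the B gate, and 48 lay inside it and 29 outside. Most B-gate droplets, 2863 in all, fell outside the 5 populations.

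Markers left out of the gates were read as a check of the names. All 8 tested marginal zone genes rose in marginal zone droplets relative to follicular ones, with a median log2 fold of 2.52. All 5 tested plasma genes outside the gate rose in plasma droplets, with a median of 4.33. S1pr3 and Cd36 passed the UMI filter given below only through marginal zone droplets, which held 77 and 88 of their UMIs. Eaf2 passed it only through plasma droplets, which held 112 of its UMIs. The rise of these genes was therefore partly fixed by the filter and is a weaker check of the names. Of 2 tested B-1 genes outside the gate, Zcwpw1 and Plscr1, both rose in B-1-like droplets relative to follicular ones. Zcwpw1 also rose in plasma droplets (log2 fold 2.465), and Plscr1 was not called against marginal zone droplets. Ctla4, Tppp3, Nt5e and Fcrl5 of that list had too few UMIs to be tested, at 0, 1, 2 and 9 in B-1-like droplets. Of 3 tested transitional genes outside the gate, Cd24a rose and Ms4a4c fell in transitional-like droplets, so that name rests largely on the gate itself. Median depth was 3004 UMIs per droplet in B-1-like, 2155 in marginal zone, 1416 in transitional-like, 6458 in plasma and 1555 in follicular droplets. Of plasma droplets 53 of 77 had 4000 or more UMIs, against 22 of 1787 follicular ones, and droplets holding more than a single cell were not removed. Erythroid transcripts were lower in all 4 populations than in follicular droplets, where 7 genes summed to between 3543 and 4431 CPM by library, against 155 to 403 CPM in the others. Proliferation genes summed to 742 CPM in Main1 and 31.0 CPM in Main2 B-1-like droplets, to 154 and 391 CPM in marginal zone and 454 and 222 CPM in plasma droplets, and to 54.9 to 65.3 CPM in follicular droplets. The part of these differences in the results below was not tested.

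Levels are given as CPM of a gene's UMIs over all UMIs that are not from immunoglobulin genes, because immunoglobulin took 52.9% and 64.7% of all UMIs in plasma droplets and 1.64% to 3.96% in the other populations. Folds come from edgeR's quasi-likelihood test on UMI sums per library and population, with the library as a block and trimmed-mean scaling over all genes. A change was called at an adjusted p under 0.05 over 7003 genes with 50 or more UMIs. Of the 10 factors, 9 passed that filter, and Prdm1 with 47 UMIs in these sums did not. The 4 comparisons with follicular droplets share the follicular sums. The median log2 fold of all genes tested was -0.13 for B-1-like, 0.003 for marginal zone, -0.05 for transitional-like and -0.16 for plasma against follicular droplets, and -0.15 for B-1-like against marginal zone droplets, so small negative folds lie near the bulk of genes.

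In plasma droplets 5 of the 9 tested factors rose and 4 fell relative to follicular droplets, against 9.9% of all genes higher and 8.9% lower. In B-1-like droplets 3 factors rose and 1 fell relative to follicular droplets, against 1.68% and 1.5% of all genes. Marginal zone droplets had 1 factor higher and 2 lower, where 4.58% of all genes were higher and 3.1% lower. Transitional-like droplets had 2 higher and 0 lower, where 1.26% of all genes were higher and 1.94% lower. Between B-1-like and marginal zone droplets 3 factors were higher and 1 lower, beside 1.1% and 1.19% of all genes.

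**Figure D1:**
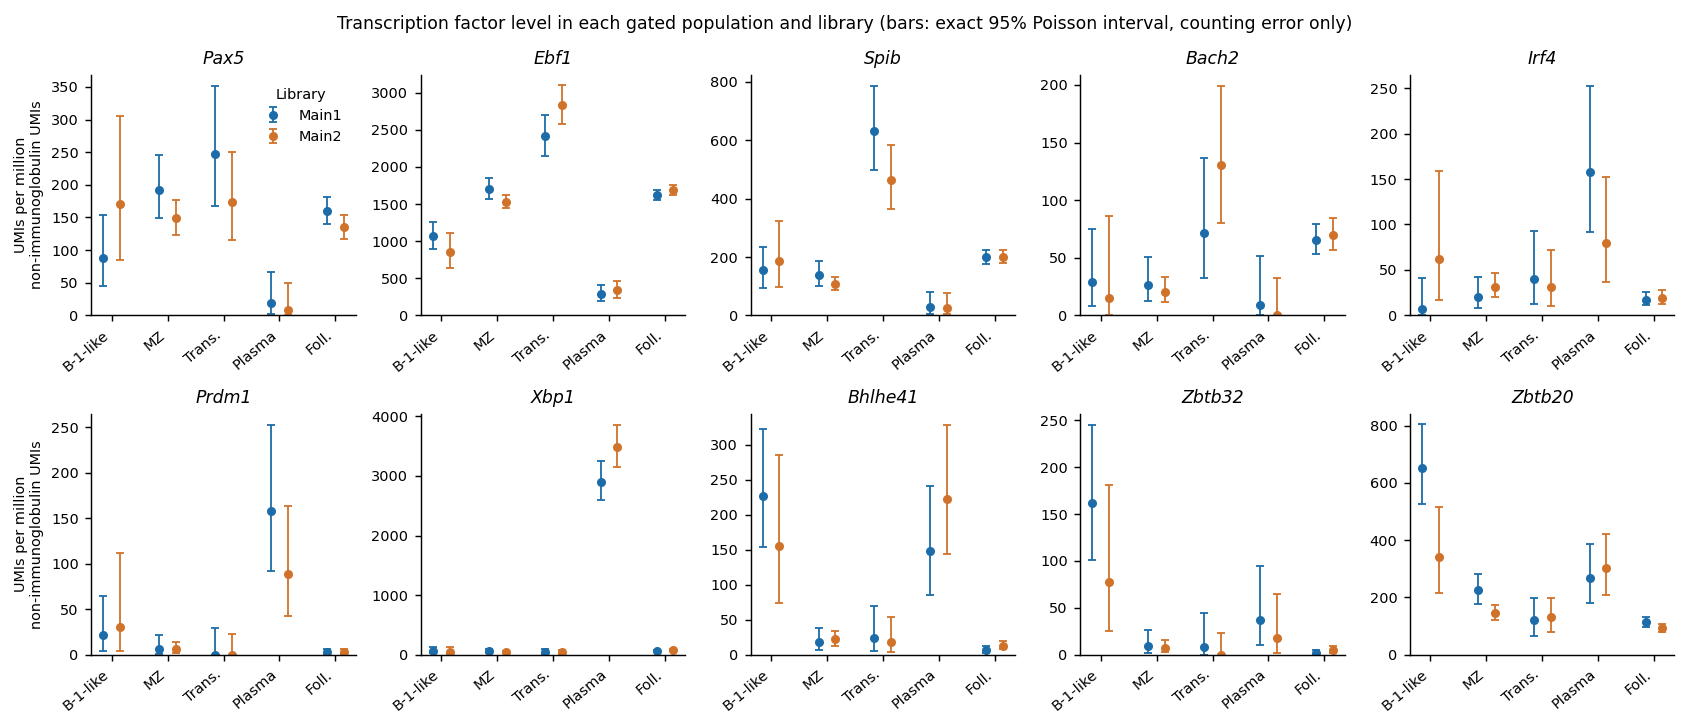
Level of each factor in CPM without immunoglobulin (vertical axis) in 5 gated populations (horizontal axis), one point per library with its exact 95% Poisson interval, which covers counting error only. Xbp1, Irf4 and Prdm1 were highest in plasma, Spib and Ebf1 in transitional-like droplets, and Zbtb32 and Zbtb20 in B-1-like droplets.

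**Figure D2:**
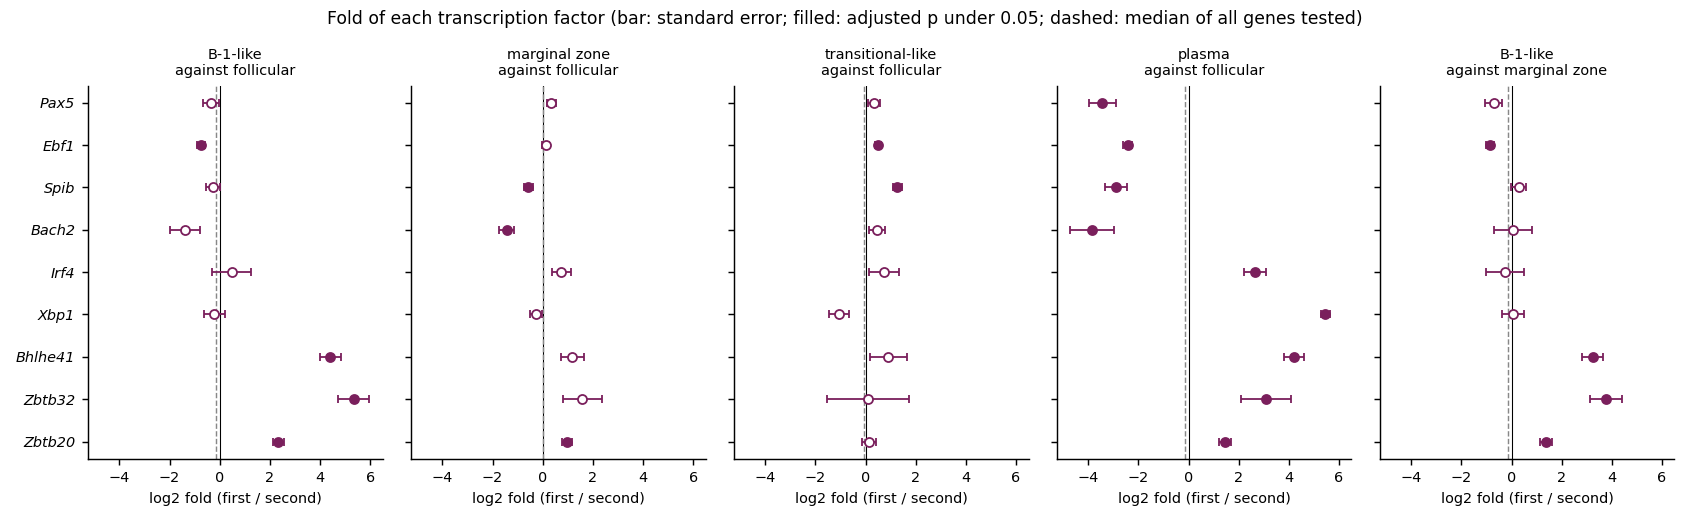
Log2 fold of the 9 tested factors (rows) in the 5 comparisons (panels), first population over second, with the standard error as a bar, filled points where the edgeR adjusted p was under 0.05 and a dashed line at the median of all genes tested. Plasma against follicular droplets holds the widest spread, between -3.84 for Bach2 and 5.45 for Xbp1.

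The 4 upstream regions are shown because their genes moved in opposite directions in plasma droplets or marked B-1-like droplets. Each is the 250 bases before a RefSeq start (GRCm38.p6), 5′ to 3′ on the gene's strand. Capitals mark matches on either strand to 1 motif per gene: AGNGAAAG, a core of the kind bound by Prdm1, in Pax5 (chr4:44710695-44710944, minus strand) and in Bach2 (chr4:32417185-32417434, plus strand); TGANTCA, of the kind bound by Maf and Bach proteins, in Prdm1 (chr10:44458749-44458998, minus strand); and the E-box CACGTG, of the kind bound by Bhlhe41 itself, in Bhlhe41 (chr6:145865421-145865670, minus strand).
Pax5: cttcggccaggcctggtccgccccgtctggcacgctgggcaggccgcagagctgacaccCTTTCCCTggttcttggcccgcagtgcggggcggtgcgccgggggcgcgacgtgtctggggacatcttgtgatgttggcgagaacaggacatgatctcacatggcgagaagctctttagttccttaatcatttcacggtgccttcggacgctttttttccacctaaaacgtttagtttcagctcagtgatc
Bach2: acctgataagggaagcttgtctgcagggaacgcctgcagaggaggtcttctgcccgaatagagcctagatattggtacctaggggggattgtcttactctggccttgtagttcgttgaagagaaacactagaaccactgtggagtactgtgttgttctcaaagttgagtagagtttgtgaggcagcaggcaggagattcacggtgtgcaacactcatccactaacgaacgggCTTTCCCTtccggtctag
Prdm1: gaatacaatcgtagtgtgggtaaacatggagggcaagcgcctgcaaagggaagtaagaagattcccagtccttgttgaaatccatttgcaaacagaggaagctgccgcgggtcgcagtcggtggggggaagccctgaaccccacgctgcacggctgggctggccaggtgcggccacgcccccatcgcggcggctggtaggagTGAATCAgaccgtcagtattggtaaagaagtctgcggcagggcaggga
Bhlhe41: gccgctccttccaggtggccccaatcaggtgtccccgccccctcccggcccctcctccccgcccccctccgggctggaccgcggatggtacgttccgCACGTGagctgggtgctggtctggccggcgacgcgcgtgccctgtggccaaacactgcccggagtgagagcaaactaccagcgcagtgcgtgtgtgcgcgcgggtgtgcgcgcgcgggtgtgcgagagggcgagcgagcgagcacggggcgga

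AGNGAAAG was found in 8.63% of 32851 RefSeq promoter windows of 300 bases, TGANTCA in 7.81% and CACGTG in 7.15%, so these matches are common and describe only the letters. The Bach2 match lies at -18 and overlaps a match at -17 to GGAA, any 2 bases and GAAA, an Ets-Irf composite present in 2.72% of windows. The Prdm1 match lies at -48, the Pax5 match at -191 and the Bhlhe41 match at -153. The RefSeq start behind the Pax5 window matches no transcript start of GENCODE vM21 and lies outside the gene span given for Pax5 below, so its -191 counts from a start that GENCODE does not hold. Of the other motifs searched, CCCNNGGG, of the kind bound by Ebf1 and present in 13.67% of windows, matched at 2 overlapping places in the Spib window. GAAA, any 2 bases and GAAA, an interferon-response motif in 3.44% of windows, matched at -155 in one Ebf1 window, and AGNGAAAG also matched at -170 in another. The capitalised motif of each gene was picked after the matches were known. ACGTG, in 19.62% of windows, matched in Pax5, Ebf1, Bhlhe41 (inside the E-box) and Zbtb32. TGACGTGG, of the kind bound by Xbp1 and present in 0.68% of windows, matched in none of the 10 genes' windows, and Xbp1, Irf4 and Zbtb20 had no match to any motif searched.

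Pax5, on chromosome 4 (44524757 to 44710487, minus strand, GRCm38), was close to absent from plasma droplets and present in every other population. It had 18.5 CPM in Main1 and 8.90 CPM in Main2 plasma droplets, against 160 and 135 CPM in follicular droplets. Plasma droplets held 3 Pax5 UMIs in all, and the CPM ratio to follicular droplets was 0.0925 (95% interval 0.019 to 0.272). The libraries did not overlap, and the log2 fold was -3.43 ± 0.55 (SE, adjusted p 1.93e-07).
B-1-like droplets had 88.1 and 171 CPM, marginal zone droplets 193 and 148 CPM and transitional-like droplets 248 and 174 CPM. None of these 3 differed from follicular droplets by the test, and the order transitional-like, marginal zone, follicular, B-1-like did not separate by library. After thinning every droplet to 1000 non-immunoglobulin UMIs, a Pax5 UMI was found in 3.12% of plasma droplets (2 of the 64 deep enough), against 13.2% of follicular ones. Before thinning the shares were 3.90% of 77 plasma and 21.43% of follicular droplets. Thinned T-gate droplets, which should lack Pax5, had 0.497% and thinned myeloid-gate droplets 0.976%. The myeloid gate was set by CD11b without CD3 or B-cell antigens and is mixed. It also held natural killer cell transcripts, with 2090 CPM of Gzma and 414 CPM of Ncr1, against 168 and 25.3 CPM in the T gate. In plasma droplets under 4000 UMIs the fall was not called (adjusted p 0.1175).

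Ebf1, on chromosome 11 (44617317 to 45008091, plus strand), works with Pax5 at many of the same genes. Plasma droplets had 287 CPM in Main1 and 338 CPM in Main2, B-1-like droplets 1065 and 853, marginal zone droplets 1708 and 1533, transitional-like droplets 2411 and 2829, and follicular droplets 1621 and 1692 CPM. Ebf1 fell in plasma droplets relative to follicular ones (log2 fold -2.42 ± 0.18, adjusted p 5.93e-22). It kept 69 UMIs there, where Pax5, also the lower in follicular droplets, had 3. Of the 69 Ebf1 UMIs, 63 lay in the 48 plasma droplets inside the B gate (363 CPM) and 6 in the 29 outside it (128 CPM). A UMI remained in 28.1% of thinned plasma droplets, against 79.3% of follicular, 1.66% of T-gate and 2.93% of myeloid-gate droplets. Unthinned, the shares were 41.6% of plasma, 90.6% of follicular and 8.44% of T-gate droplets.
In B-1-like droplets Ebf1 fell relative to follicular (-0.74 ± 0.16, adjusted p 0.000526) and marginal zone droplets (-0.86 ± 0.16, adjusted p 6.28e-05). The ratio to follicular droplets was -0.52 in Main1 and -1.07 in Main2 on the log2 scale. Both calls were lost with library totals in place of trimmed-mean scaling (adjusted p 0.05368 and 0.1023), and the first also after thinning (0.05491) and when the B-1-like gate used antibodies alone (-0.41, adjusted p 0.1068). Transitional-like droplets had the highest level in both libraries, with a log2 fold of 0.49 ± 0.13 over follicular droplets (adjusted p 0.01637). That call was lost with library totals (0.64, adjusted p 0.1417), without the block (adjusted p 0.1232) and with a filter of 10 UMIs (adjusted p 0.1464). Gm12158 overlaps Ebf1 on the opposite strand, and the sources used here do not say whether counting used strand.

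Spib, on chromosome 7 (44525993 to 44532071, minus strand), encodes an Ets-family factor that works in B-cell receptor signalling. It was the factor most raised in transitional-like droplets, which had 631 CPM in Main1 and 465 CPM in Main2, against 199 and 201 CPM in follicular droplets. The fold was 1.26 ± 0.18 on the log2 scale (adjusted p 1.64e-07), with 1.46 in Main1 and 1.03 in Main2, and it was called under every alternative tested. Thinned to the same depth, 39.9% of transitional-like droplets held a Spib UMI, against 17.0% of follicular and 1.49% of T-gate ones, and unthinned 46.6%, against 27.1% and 2.98%. Neutrophil genes summed to 2348 CPM in Main1 and 775 CPM in Main2 transitional-like droplets, against 1200 and 376 CPM in follicular droplets, while the myeloid gate, at 73651 and 77255 CPM of these genes, had 13.8 and 9.85 CPM of Spib.
Plasma droplets had 27.8 and 26.7 CPM of Spib, from 6 UMIs, and it fell there by 2.89 ± 0.43 on the log2 scale (adjusted p 2.3e-08), a call lost in droplets under 4000 UMIs (0.07777). Marginal zone droplets had 139 and 108 CPM, and the smaller fall there (-0.57 ± 0.18, adjusted p 0.03485) was not called with DESeq2 (adjusted p 0.4206), without the block (0.1018) or after thinning (0.2063). B-1-like droplets had 154 and 186 CPM and did not differ from follicular droplets by the test.

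Bach2, on chromosome 4 (32238804 to 32586108, plus strand), encodes a repressor that delays plasma-cell differentiation. Plasma droplets held 1 UMI, at 9.27 CPM in Main1 and 0 CPM in Main2, against 65.3 and 69.7 CPM in follicular droplets, a ratio of 0.0672 (95% interval 0.0017 to 0.379). The fitted log2 fold was -3.84 ± 0.88 (adjusted p 0.000368), and the call was lost with DESeq2 (adjusted p 0.06498), in droplets under 4000 UMIs (0.2057) and after thinning (0.2237).
Bach2 also fell in marginal zone droplets, which had 26.7 and 20.7 CPM (log2 fold -1.44 ± 0.31, adjusted p 0.000423). The ratio was -1.03 in Main1 and -1.45 in Main2, and the libraries did not overlap, but the call was lost with DESeq2 (adjusted p 0.1553) and after thinning (0.3199). B-1-like droplets had 29.4 and 15.5 CPM from 5 UMIs, with a fold of -1.39 ± 0.60 against follicular droplets that did not pass (adjusted p 0.2603). Transitional-like droplets had 71.9 and 130 CPM, the highest of the 5, without passing the test. Along IgD in the B gate, Bach2 stood at 38.4 CPM in the lowest 10% of droplets and 94.9 CPM in the highest. It was not confined to B cells, with 43.0 and 34.0 CPM in the T gate.

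Xbp1, on chromosome 11 (5520659 to 5525893, plus strand), encodes a factor of the unfolded protein response that enlarges the secretory apparatus. It was the factor with the strongest rise in plasma droplets, at 2902 CPM in Main1 and 3487 CPM in Main2, against 70.5 and 73.0 CPM in follicular droplets. Secretory genes were used in the plasma gate, so this rise is not independent of that gate. The log2 fold was 5.45 ± 0.17 (adjusted p 7.03e-52), with 5.24 in Main1 and 5.50 in Main2. Plasma droplets were 3.02% of all UMIs in the table but held 36.2% of all Xbp1 UMIs. Those inside the B gate had 2677 CPM and those outside it 5134 CPM. After thinning, 84.4% of plasma droplets held an Xbp1 UMI, against 7.05% of follicular, 4.97% of T-gate and 9.27% of myeloid-gate droplets. Unthinned, it was 84.4% of plasma, 11.7% of follicular and 13.7% of T-gate droplets.
B-1-like droplets had 66.1 and 46.5 CPM, marginal zone droplets 59.3 and 51.1 CPM, and transitional-like droplets 39.9 and 37.2 CPM, and none passed the test against follicular droplets. The T gate had 39.7 and 66.2 CPM and the myeloid gate 90.9 and 93.5 CPM, so both libraries of these 3 populations and of follicular droplets lay below the myeloid gate. The UMI tables do not tell spliced from unspliced Xbp1, which set its activity.

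Prdm1, on chromosome 10 (44437177 to 44528501, minus strand), is the repressor that ends the B-cell programme in plasma cells. Plasma droplets had 158 CPM in Main1 and 88.9 CPM in Main2 from 27 UMIs, against 2.59 and 2.58 CPM in follicular droplets from 8 UMIs. With the filter lowered to 10 UMIs the log2 fold was 5.23 (adjusted p 3.63e-15). B-1-like droplets had 22.0 and 31.0 CPM from 5 UMIs, above marginal zone (5.93 and 6.09 CPM) and follicular libraries, but their fold over follicular droplets did not pass (3.01, adjusted p 0.1291). Transitional-like droplets held 0 UMIs, and 3 UMIs over both libraries, the floor used for a count of 0, would be 10.5 CPM. Myeloid-gate droplets, a mixed set whose cells can express Prdm1 themselves, had 29.6 and 9.85 CPM.

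Irf4, on chromosome 13 (30749226 to 30766976, plus strand), is raised in activated B cells and further in plasma cells. Plasma droplets had 158 CPM in Main1 and 80.1 CPM in Main2, against 17.5 and 19.4 CPM in follicular droplets. The log2 fold was 2.64 ± 0.45 (adjusted p 9.99e-07), with ratios of 2.86 in Main1 and 1.84 in Main2. A single droplet held 41.2% of the 17 Irf4 UMIs of Main1 plasma droplets. The call was lost after thinning (2.02, adjusted p 0.2985), and plasma droplets under 4000 UMIs, 24 of 77, gave a negative fitted fold with no call. B-1-like droplets stood at 7.34 CPM in Main1 and 62.0 CPM in Main2, on 1 and 4 UMIs, so no level can be read there. Marginal zone (20.8 and 31.6 CPM) and transitional-like droplets (39.9 and 31.0 CPM) did not pass against follicular droplets.

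Within the 77 plasma droplets, a UMI of Xbp1 was found in 65, of Prdm1 in 19 and of Irf4 in 16, and 7 droplets held all 3. Every droplet with Prdm1 or Irf4 also held Xbp1. Prdm1 was found in 9 of the 32 droplets with Ebf1 and in none of the 3 with Pax5, beside 19 of all 77. With 3 droplets no difference can be read for Pax5. Detection at this depth misses most transcripts of a rare RNA, so a droplet without a UMI is not a cell without expression.

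**Figure D3:**
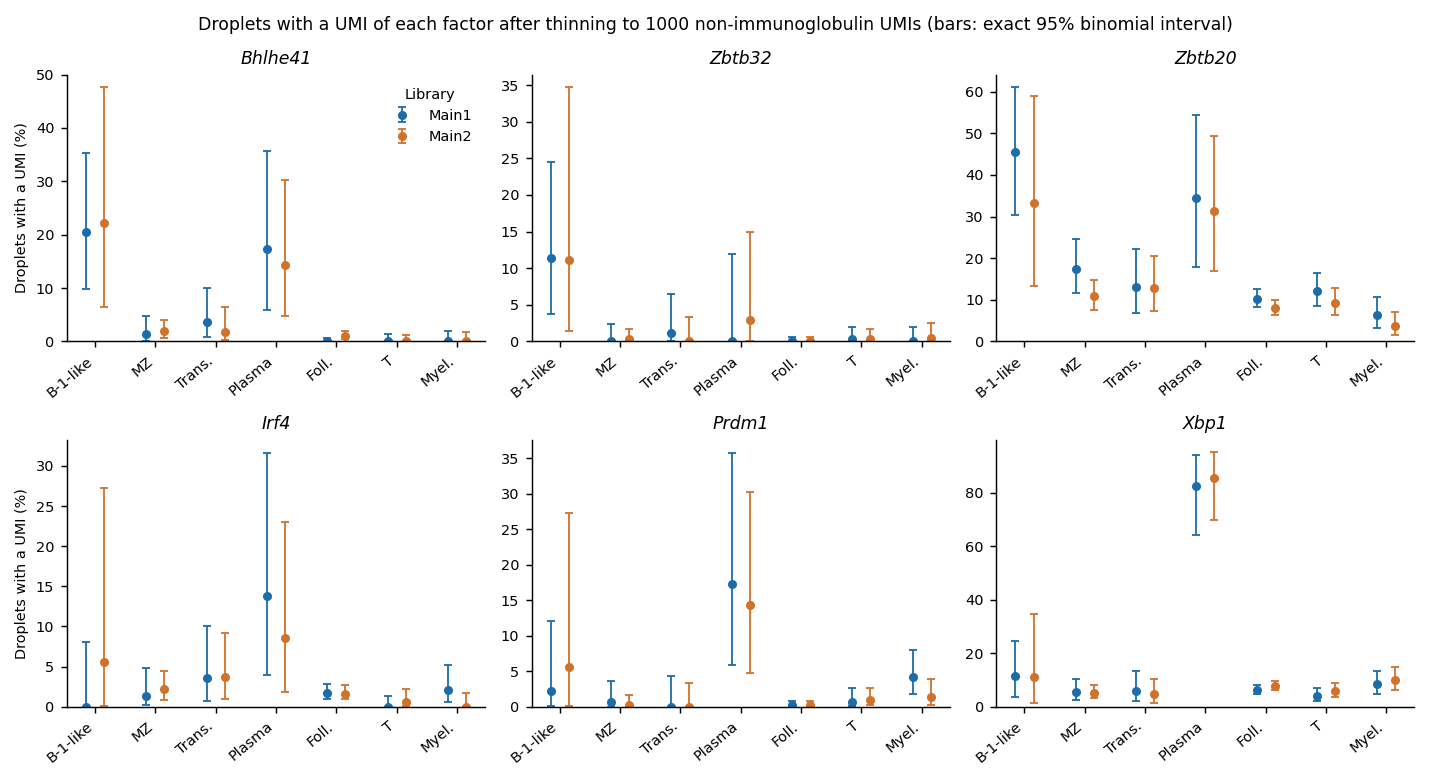
Share of droplets with a UMI (vertical axis, percent) of 6 factors after thinning each droplet to 1000 non-immunoglobulin UMIs, by population (horizontal axis) and library, with exact 95% binomial intervals. The T and myeloid gates give the share in other cell types, and the plasma share of Xbp1 (82.8% in Main1, 85.7% in Main2) stands clear of every other.

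Bhlhe41, on chromosome 6 (145858243 to 145865558, minus strand), separated B-1-like and plasma droplets from the rest of the 5 populations. B-gate droplets outside these populations also held it, as given further below. B-1-like droplets had 228 CPM in Main1 and 155 CPM in Main2, plasma droplets 148 and 222 CPM, and follicular droplets 6.47 and 12.9 CPM. The log2 fold over follicular droplets was 4.42 ± 0.42 in B-1-like (adjusted p 4.25e-15) and 4.21 ± 0.42 in plasma droplets (adjusted p 1.69e-15). The ratios by library were 4.53 in Main1 and 3.14 in Main2 for B-1-like droplets, and 3.80 and 3.74 for plasma droplets. Both folds were called under every alternative tested. B-1-like and plasma libraries overlapped.
Marginal zone droplets had 17.8 and 21.9 CPM, above both follicular libraries without passing the test (1.18 ± 0.46, adjusted p 0.1064). B-1-like droplets rose over marginal zone droplets by 3.23 ± 0.43 on the log2 scale (adjusted p 1.46e-08). After thinning, 21.0% of B-1-like and 15.6% of plasma droplets held a Bhlhe41 UMI, against 0.616% of follicular droplets. Unthinned, these shares were 40.3%, 29.9% and 1.29%. None was left in 604 thinned T-gate and 410 thinned myeloid-gate droplets. The floor used for a count of 0, here 3 droplets, would be 0.497% and 0.732% of them. It is not an upper bound and does not limit the share of expressing cells. Monocyte or macrophage genes summed to 498 CPM in B-1-like, 116 in marginal zone and 244 in follicular droplets, and to 16834 CPM in the myeloid gate, where Bhlhe41 was at 0. Ms4a6c was the 1 gene of 5 tested in that list to rise in B-1-like droplets. The 8 dendritic genes summed to 36.7 CPM in Main1 and 326 CPM in Main2 B-1-like droplets, against 50.4 and 36.5 CPM in marginal zone, 67.2 and 54.2 CPM in follicular and 441 and 533 CPM in myeloid-gate droplets. In B-1-like droplets 4 of the 8 were at 0, and a single Main2 droplet held all 10 UMIs of Xcr1 and all 8 of Batf3, genes of cross-presenting dendritic cells. That droplet held 0 UMIs of Bhlhe41, Zbtb32 and Zbtb20. Without it the other 17 Main2 B-1-like droplets had 177 CPM of Bhlhe41, 88.7 CPM of Zbtb32 and 390.4 CPM of Zbtb20, and no call of a factor changed when droplets with either gene were left out of all populations. T-cell genes summed to 194 CPM in B-1-like and 129 CPM in follicular droplets, and to 7555 CPM in the T gate, where Bhlhe41 had 2 UMIs. Cd3g was the only tested gene of that list to rise in B-1-like droplets. Its log2 fold was 2.17 ± 0.55 over follicular and 2.66 ± 0.65 over marginal zone droplets. The part of T-cell transcripts in the B-1-like results was not tested.

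Zbtb32, on chromosome 7 (30589681 to 30598909, minus strand), encodes a zinc-finger repressor. B-1-like droplets had 162 CPM in Main1 and 77.5 CPM in Main2, against 8.89 and 7.30 CPM in marginal zone droplets and 1.29 and 4.52 CPM in follicular droplets. The log2 fold was 5.34 ± 0.62 over follicular (adjusted p 2.72e-11) and 3.77 ± 0.63 over marginal zone droplets (adjusted p 8.04e-06). The ratio over follicular droplets was 5.01 in Main1 and 3.16 in Main2, and both folds were called under every alternative tested. Follicular droplets held 9 Zbtb32 UMIs in all, so the size of the fold is loosely known. Zbtb32 passed the UMI filter only through B-1-like droplets, as given above.
The 6 UMIs of plasma droplets all lay inside the B gate, and plasma droplets as a whole had 37.1 and 17.8 CPM. Their rise over follicular droplets passed (3.09 ± 0.98, adjusted p 0.01486) but was lost with library totals (1.89, adjusted p 0.06142) and with a stricter Jchain gate (2.77, adjusted p 0.08035), and the ratio was 2.88 in Main1 and 1.35 in Main2. Transitional-like droplets held 1 UMI. The T gate had 7.73 and 11.3 CPM, as high as marginal zone droplets.

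Zbtb20, on chromosome 16 (42875881 to 43642602, plus strand), encodes another zinc-finger repressor of this family and was graded rather than restricted. B-1-like droplets had 653 CPM in Main1 and 341 CPM in Main2, plasma droplets 269 and 302, marginal zone droplets 225 and 146, transitional-like droplets 120 and 130, and follicular droplets 114 and 92.3 CPM. In CPM this order did not overlap by library at any step, though the Main2 B-1-like level rested on 22 UMIs. With trimmed-mean scaling the step from follicular to transitional-like droplets had opposite signs in the 2 libraries and was not called. Relative to follicular droplets Zbtb20 rose in B-1-like (2.34 ± 0.22, adjusted p 3.66e-15), plasma (1.45 ± 0.25, adjusted p 1.9e-06) and marginal zone droplets (0.96 ± 0.19, adjusted p 6.9e-05). The ratio for B-1-like droplets was 2.56 in Main1 and 1.75 in Main2. Zbtb20 also rose in B-1-like relative to marginal zone droplets (1.38 ± 0.23, adjusted p 4.81e-06). The plasma rise was not called with library totals, which count immunoglobulin (0.22, adjusted p 0.4589), in droplets under 4000 UMIs (0.82, adjusted p 0.5527) or after thinning (0.70, adjusted p 0.5066). The T gate, at 121 and 93.2 CPM, was level with follicular droplets.

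Within the 62 B-1-like droplets, Bhlhe41 was found in 25, Zbtb32 in 22 and Zbtb20 in 44. All 3 were found together in 8 droplets and none of them in 11. Only 11.3% of all Bhlhe41 UMIs lay in the B-1-like gate, and 56.0% lay in B-gate droplets outside the 5 populations, which held 34.0% of all UMIs. The distribution over the whole B gate was therefore read along the surface antigens, in steps of 10% of droplets, with plasma and T-cell-receptor-positive droplets left out.

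Bhlhe41 was higher towards the top of CD5, with 81.5 CPM in Main1 and 95.4 CPM in Main2 in the highest 10%, against 7.45 and 10.99 CPM in the lowest. It was lower towards the top of CD21/35, with 5.08 and 13.5 CPM in the highest 10%, against 128 and 151 CPM in the lowest, and along IgD, with 2.39 and 2.54 CPM in the highest, against 136 and 110 CPM in the lowest. Zbtb32 showed the same ends, with 37.5 and 29.9 CPM in the highest CD5 step, against 0 in both libraries in the lowest, and 3.38 and 6.76 CPM in the highest CD21/35 step, against 68.8 and 30.5 CPM in the lowest. Zbtb20 had 344 and 308 CPM in the highest CD5 step, against 119 and 115 CPM in the lowest.
Spib followed CD21/35 and IgD but not CD5. Its highest CD21/35 step had 174 and 118 CPM, against 385 and 354 CPM in the lowest. Its highest IgD step had 225 and 150.0 CPM, against 329 and 282 CPM in the lowest, while its CD5 steps ranged between 142 and 256 CPM by library. These steps include the gated droplets, so they do not repeat the comparisons independently. They also include B-gate droplets outside the 5 populations, where the dendritic genes Siglech and Bst2 had 51.8 and 127.6 CPM. Follicular droplets had 3.23 and 43.0 CPM of these. Cd209a was also higher outside the populations, at 16.7 CPM against 1.6 CPM in follicular droplets. Flt3 was near level, at 4.64 CPM against 4.52 CPM, and Zbtb46, Xcr1, Itgax and Batf3 were not higher outside the populations. The part of such droplets in the Spib levels was not tested.

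**Figure D4:**
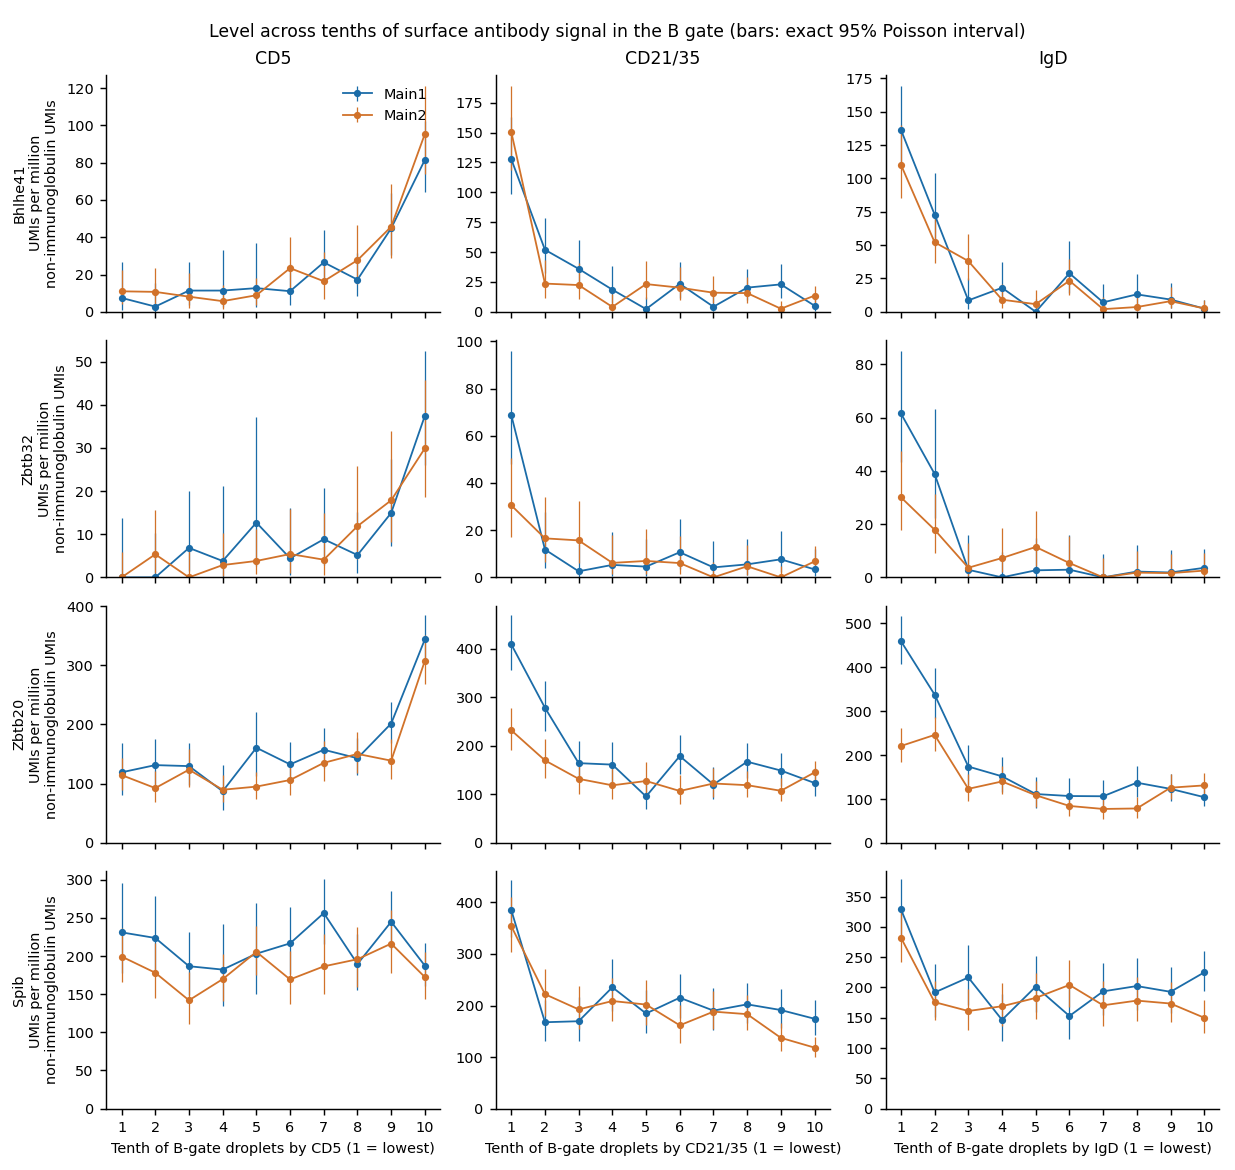
Level of Bhlhe41, Zbtb32, Zbtb20 and Spib (rows, CPM without immunoglobulin) across steps of 10% of B-gate droplets by CD5, CD21/35 and IgD (columns, step 1 is the lowest), by library with exact 95% Poisson intervals. The first 3 factors were higher at the high end of CD5 and the low ends of CD21/35 and IgD, and Spib at the low ends of CD21/35 and IgD.

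The 3 lists of related genes show what moved beside the 10 factors. Of 40 other B-lineage transcription factors, 39 were measured and 33 tested. In plasma droplets 4 rose and 13 fell relative to follicular droplets, with a median log2 fold of -1.11, against -0.16 for all genes. In droplets under 4000 UMIs 0 rose and 6 fell, with a median of -1.80 beside -1.13 for all genes, and after thinning 1 rose and 8 fell of 29 tested. With library totals, which shift the median of all genes to -1.39 in plasma droplets, 1 rose and 27 fell. Ell2, an elongation factor used in immunoglobulin secretion, rose (4.33 ± 0.33), and Zfp318, which is needed for IgD (-4.37 ± 0.80), Hhex, a homeobox factor (-3.95 ± 0.51), and Bcl11a (-3.51 ± 0.41) fell. Ell2 and Zfp318 were not called in droplets under 4000 UMIs, whereas Hhex and Bcl11a were.
In B-1-like droplets 3 rose and 5 fell relative to follicular droplets, while the list's median, -0.11, was near the -0.13 of all genes. Id2, an inhibitor of E proteins, and the growth regulator Myc rose (2.42 ± 0.46 and 1.89 ± 0.42), and Zfp318 (-2.25 ± 0.59) and Id3 (-1.77 ± 0.36) fell. None of these 4 was called after thinning, nor Id2 in droplets under 4000 UMIs. The Id2 rise rested on the Main2 droplet with Xcr1 and Batf3 described above, which held all 14 Id2 UMIs of Main2 B-1-like droplets, and Id2 was not called without it, against follicular or marginal zone droplets. In marginal zone droplets 4 rose and 5 fell (median -0.10), among them Myc (2.34 ± 0.22) and Runx3 (1.02 ± 0.25) upwards and Klf2, which holds cells quiescent and is also one of the follicular markers (-2.32 ± 0.22), and Zfp318 (-1.65 ± 0.27) downwards. In transitional-like droplets 1 rose, Zeb2 (1.87 ± 0.30), a call DESeq2 did not make, and 0 fell (median 0.16). Between B-1-like and marginal zone droplets Klf2 (2.44 ± 0.30) and, through the same droplet, Id2 (2.48 ± 0.51) were higher, and Mef2c (-1.19 ± 0.21) and Ets1 (-1.03 ± 0.31) were lower, though the Ets1 call held in only 3 of 13 alternatives, and the list's median was -0.22.

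Of 20 genes known as targets of Pax5 and Ebf1, 19 were tested. In plasma droplets 17 fell, 0 rose and the median log2 fold was -1.81. Of the 2 not called, both had negative folds. With library totals all 19 fell, but that scaling moved most genes downwards in plasma droplets, as given above. In droplets under 4000 UMIs 10 fell and after thinning 12, with negative folds for all 19 in both. The median fold of all genes was also negative in droplets under 4000 UMIs, as given above. Siglecg (-3.17 ± 0.33), Cd72 (-3.01 ± 0.35) and Cd55 (-2.83 ± 0.31), surface proteins of B cells, and the scaffold Bank1 (-2.77 ± 0.26) fell the furthest. In B-1-like droplets 4 fell and 0 rose relative to follicular droplets, namely Cr2, which encodes the CD21/35 antigen of the gates (-2.22 ± 0.35), Cd55 (-1.92 ± 0.28), Cd22 (-1.15 ± 0.31) and Bank1 (-0.96 ± 0.21), and 3 fell relative to marginal zone droplets (medians -0.38 and -0.42). In marginal zone droplets 4 rose, among them Cr2 (1.75 ± 0.15) and the kinase Blk (0.73 ± 0.17), and 2 fell, Cd55 (-1.51 ± 0.17) and Swap70 (-0.59 ± 0.17). The median was 0.06. With library totals 1 rose and 3 fell, with a median of -0.08, and with DESeq2 1 rose and 1 fell; Blk was called in neither and Swap70 not with DESeq2. In transitional-like droplets 4 rose, among them Ms4a1, which encodes CD20 (1.13 ± 0.13), and Siglecg (0.92 ± 0.16), and 2 fell, the class II transactivator Ciita (-1.36 ± 0.34) and Cr2 (-1.25 ± 0.25), with a median of 0.18.

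Of 20 genes of the secretory pathway, many of them known targets of Xbp1, 19 were tested and all 19 rose in plasma droplets, with a median log2 fold of 3.56, or 2.30 with library totals, where all 19 also rose. The plasma gate used other secretory genes, none of them in this list, so the rise is not independent of the gate. In droplets under 4000 UMIs 12 of the 19 were called, with a median of 1.71 beside -1.13 for all genes, and all 19 folds were positive. After thinning 17 of 18 tested were called, with a median of 2.88. Pdia4, a protein disulphide isomerase (4.97 ± 0.18), Sdf2l1 (4.76 ± 0.18), Sel1l, of the degradation machinery (4.38 ± 0.24), and the chaperone Dnajc3 (4.11 ± 0.21) rose the most, and of these 4 only Sel1l was not called in droplets under 4000 UMIs. Marginal zone droplets had 1 gene called, Pdia4 (1.43 ± 0.20), with Xbp1 itself not higher. No gene of this list was called in B-1-like or transitional-like droplets by edgeR or DESeq2, and the medians were 0.18 and 0.004.

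**Figure D5:**
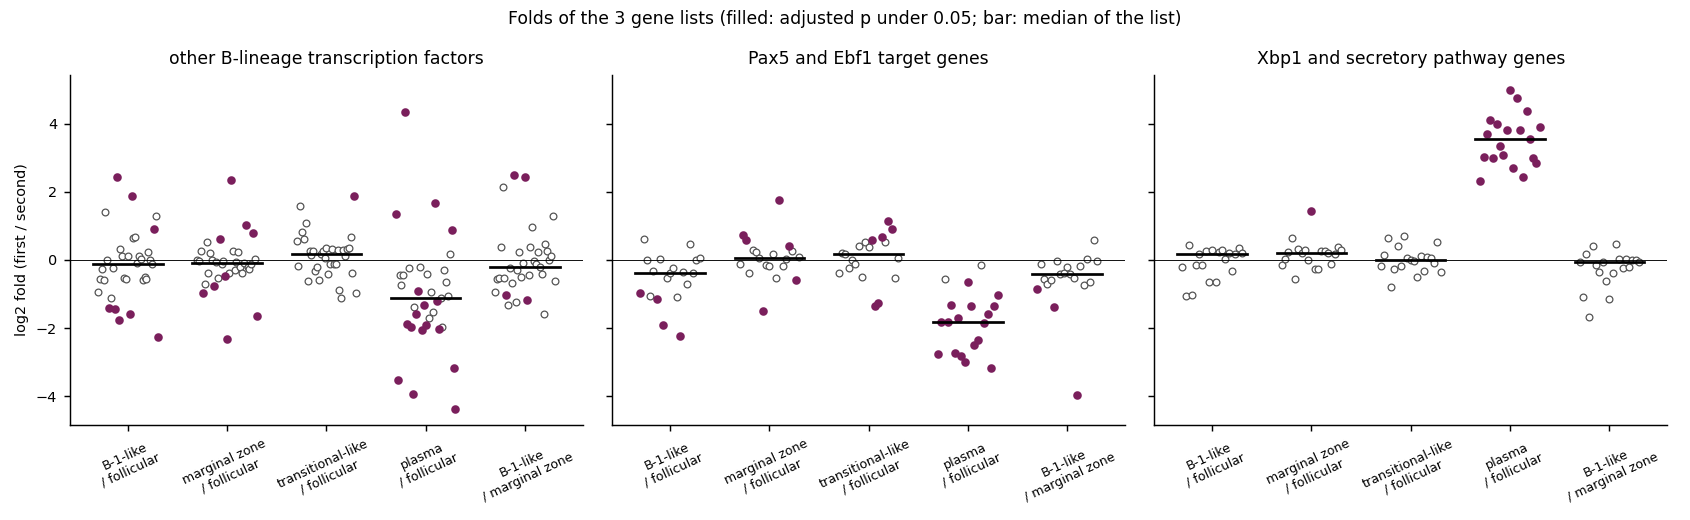
Log2 folds (vertical axis) of the genes of 3 lists in the 5 comparisons (horizontal axis), first population over second, filled where the edgeR adjusted p was under 0.05, with the list's median as a bar. In plasma droplets all 19 secretory genes lie above 0 and all 19 targets of Pax5 and Ebf1 lie below it.

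The genes whose pattern was most like each factor were found by Pearson's r of log2(CPM + 10) over the 10 sums, here on all UMIs, among 3015 genes with 200 or more UMIs. Sums of 1 library share its depth and composition, so these are descriptions. Pax5 was most like Camk2d and Tpr (r 0.99 for each), Ebf1 like Myl12b and Btg1, Spib like Lbh and Fam32a, and Bach2 like Lrmp and H3f3a. Xbp1 was most like Igkv4-74 and Ssr4, with r of 0.99 for each, Irf4 like Uso1 and Os9 (0.85 each), and Prdm1 like Pim1 and Evi2a. Bhlhe41 was most like Pim1 and Ftl1, and Zbtb32 and Zbtb20 were both most like S100a6 (0.93 and 0.90), which is one of the B-1-like gate's markers. The second gene for Zbtb32 was Zbtb20 (0.91), and for Zbtb20 it was Sp140 (0.85).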

How the data were processed

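The deposited tables held whole-number UMI counts per gene and antibody tag in each droplet, not normalized, judging by their values. Per the submitters' processing notes, bcl2fastq and Cell Ranger 3.0.2 were used with mm10. No listed gene was detected in fewer than 15 droplets. The factors, gates and lists were chosen with earlier results of these data known. Of 11713 identifiers, 11682 matched a symbol of GENCODE vM21.

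For gating, each antibody's counts were scaled by a log ratio over all droplets, and a Gaussian mixture of 2 components set positivity (posterior above 0.5, scikit-learn 1.9.0). The antigens of the B gate are not all reported here. A droplet entered at most 1 population, and no doublets were taken out. Main1 had 3179 droplets and 7964712 UMIs, Main2 had 3918 and 10174799, and 14 barcodes occurred in both. The 10 UMI sums were tested with edgeR 4.0.16 (trimmed-mean scaling, Benjamini-Hochberg adjustment), with 4 residual and 100.8 prior degrees of freedom, so genes share most of their variance estimate. Each library gave both sides of every comparison, so the library block is a true pairing. Standard errors come from the fold and its F statistic. Ratios per library are of moderated CPM, which draws ratios of few UMIs towards 0. CPM left out 77 immunoglobulin genes, chosen after their share was seen. All factors were named, and at most 4 called genes per list and comparison, by size of fold among those moving the same way in both libraries. Intervals cover counting error only. DESeq2 1.42.0 was an alternative, and the procedure was tested on simulated counts. In the simulated B-1-like comparison unchanged genes were shifted slightly downwards and most small folds were not called, and the tolerance of that test was widened after this was seen.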

Additional observations from a re-analysis of the deposited data

How the results depend on the processing

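Of 258 values for called folds under alternatives with a test, 234 kept direction and call, 23 lost the call and 1 turned negative; of 272 for folds not called, 13 changed sign. The exception was Irf4 in plasma droplets under 4000 UMIs (-6.07), fitted against no plasma UMIs. The other sign changes were of Ebf1 in marginal zone droplets with library totals (-0.027); of Spib (0.041), Irf4 (-0.34) and Xbp1 (0.24) in B-1-like against follicular droplets with antibody ratios within a droplet; and, in B-1-like against marginal zone droplets, of Bach2 at 10 or more UMIs (-0.035), without the block (-0.002), thinned (-0.04) and gated on antibodies alone (-0.037), and of Xbp1 at 10 or more UMIs (-0.037), without the block (-0.00014), on antibodies alone (-0.305), at the top 5% of CD5 (-0.203) and without droplets holding Xcr1 or Batf3 (-0.008). With 1 library alone no called fold changed sign. Among the rest, the 2 libraries gave -0.75 and 0.24 for Pax5 and -0.86 and 1.41 for Irf4 in B-1-like against follicular droplets; -0.042 and 0.705 for Bach2, 1.04 and -1.08 for Zbtb32 and -0.11 and 0.32 for Zbtb20 in transitional-like droplets; and 0.053 and -0.54 for Bach2, -1.20 and 0.67 for Irf4 and 0.073 and -0.35 for Xbp1 in B-1-like against marginal zone droplets. Leaving out droplets whose barcode occurred in both libraries changed no call or sign of a factor, and leaving out those with Xcr1 or Batf3 changed no call; both alternatives were chosen after seeing the data. A single library leaves no residual degrees of freedom, so it gave no counts. Marginal zone calls numbered 538, and 327 with no replicate block, 813 with 2 populations fitted, 303 thinned and 191 with DESeq2. B-1-like calls numbered 223, and 131 under 4000 UMIs, 64 thinned and 133 with DESeq2. Transitional-like calls numbered 224, and 124 with library totals, 145 without the block, 347 with 2 populations and 145 with DESeq2. Plasma calls numbered 1316, and 4216 with library totals, 356 under 4000 UMIs and 374 thinned. Calls between B-1-like and marginal zone droplets numbered 160, and 44 with 2 populations, 86 thinned and 85 with DESeq2. The share of calls that were higher was 59.7% in marginal zone (32.8% with library totals, 72.3% with DESeq2), 52.9% in B-1-like (66.9% with DESeq2), 39.3% in transitional-like (79.0% with library totals), 52.7% in plasma (6.2% and 66.0%) and 48.1% between B-1-like and marginal zone droplets (71.2% and 58.8%). Fewer droplets, genes or populations entered in some of these alternatives, and the cause of the changes was not tested in any. Thinning, 62 B-1-like droplets and few UMIs of Prdm1, Zbtb32 and Irf4 limit what could be detected.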

Other observations

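Bhlhe41 was also present in B-gate droplets outside the B-1-like gate that had low IgD and low CD21/35. In the lowest 20% of both antibodies, with plasma and T-cell-receptor-positive droplets left out, there were 577 droplets, a corner described after the antibody steps had been seen. Those in the top 10% of CD5 with IgM under the median, 95 droplets of which 0 were B-1-like, had 181 CPM of Bhlhe41 in Main1 and 237 CPM in Main2, 49.3 and 44.3 CPM of Zbtb32, and 509.6 and 325 CPM of Zbtb20. Those in the top 10% of CD5 with higher IgM, 59 droplets of which 40 were B-1-like, had 171 and 211 CPM of Bhlhe41, 171 and 84.6 CPM of Zbtb32 from 19 and 4 UMIs, and 783 and 359 CPM of Zbtb20. Below the top 10% of CD5, 240 droplets with higher IgM had 700.4 and 513 CPM of Spib and 63.1 and 102 CPM of Bhlhe41. The 183 droplets there with lower IgM had 248 and 259 CPM of Spib and 160.4 and 39.3 CPM of Bhlhe41, so that the order of Bhlhe41 between these last 2 sets differed between the libraries.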
